A study of Mus musculus with 6 samples.

Results

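These are 32 genes that mark the cells lining and surrounding the liver sinusoid, read from whole-liver RNA of mice with and without Cyp2e1. The set was given as a list of gene symbols, and all 32 were found among the 15960 genes of the expression table. By role they were divided into 14 endothelial genes, 8 genes of quiescent stellate and other mural cells, and 10 genes of fibrous matrix and stellate cell activation. Of the 32, 25 reached 1 FPKM (fragments per kilobase of transcript, scaled to the depth of the library) in at least 3 of the 6 libraries and were tested, namely all 14 endothelial genes, 7 stellate genes and 4 matrix genes. The 7 below that level were Pdgfra, Col1a1, Col5a1, Loxl1, Timp1, Acta2 and Thy1.

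The groups were Cyp2e1-/- (knockout) and Cyp2e1+/+ (wild type), with 3 liver libraries each. All 6 mice were of the C57BL/6 strain and 22 weeks old per the labels, and the series design gives both genotypes a high-fat diet for 14 weeks. No group on another diet was analysed here, and no label states the sex of the mice. Cyp2e1 itself, a hepatocyte cytochrome P450, fell from 6480 ± 823 to 257 ± 12.0 FPKM (SD, n = 3 each), in accord with the labels.

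Liver sinusoids are capillaries whose endothelium has open pores and no continuous basement membrane, and these endothelial cells clear waste molecules from blood through scavenger and lectin receptors. Between them and the hepatocytes lie stellate cells, which store vitamin A as retinyl ester while quiescent. When the liver is injured, stellate cells can become contractile myofibroblasts that lay down fibrillar collagen, and sinusoidal endothelium can lose its pores and come to resemble ordinary capillaries. In RNA from whole liver, fewer cells of a type and less RNA per cell cannot be told apart.

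Upstream sequence was taken from RefSeq (GRCm38.p6) for 19 of the 32 genes, matched by symbol, as the 250 bases before the start used in its promoter table, written 5′ to 3′ on the gene's strand. That start is not always the outermost one, and 12 of the 19 windows touched the annotated span of their gene or an exon of GENCODE M21. The genes without an entry were Oit3, Lyve1, Bmp2, Gpr182, Dnase1l3, Pecam1, Cdh5, Dcn, Pdgfrb, Col1a1, Lum, Loxl1 and Thy1. To show each role once or more, among windows with at most 10 bases in the gene span and none in an exon, those of Stab1 (endothelial scavenger receptor), Lrat and Rgs5 (stellate) and Col3a1 (matrix) are given. Capitals mark letters searched for on either strand. The first are CAGGAA and its close variant with a different second base, CCGGAA, the core that is bound by ETS factors, a family of transcription factors that act in endothelium. Also marked, wherever in the window they fall, are the letters TATAAA. They spell a box that binds the general transcription machinery near the start of some genes. The last is the box found upstream of many genes and bound by the factor NF-Y, with the letters CCAAT, and no marked match overlapped another in these 4 sequences.
Stab1, chr14:31168642-31168891, minus strand: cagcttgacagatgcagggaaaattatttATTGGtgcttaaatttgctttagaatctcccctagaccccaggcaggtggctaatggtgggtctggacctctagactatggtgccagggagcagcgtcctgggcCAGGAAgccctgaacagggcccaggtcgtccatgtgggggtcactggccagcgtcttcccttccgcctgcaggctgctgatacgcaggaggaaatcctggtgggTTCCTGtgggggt
Lrat, chr3:82903975-82904224, minus strand: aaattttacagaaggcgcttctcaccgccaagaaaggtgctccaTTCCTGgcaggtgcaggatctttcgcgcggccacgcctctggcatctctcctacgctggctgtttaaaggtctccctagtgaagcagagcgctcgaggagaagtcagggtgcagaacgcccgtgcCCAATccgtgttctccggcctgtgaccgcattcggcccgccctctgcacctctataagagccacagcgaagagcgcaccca
Rgs5, chr1:169655251-169655500, plus strand: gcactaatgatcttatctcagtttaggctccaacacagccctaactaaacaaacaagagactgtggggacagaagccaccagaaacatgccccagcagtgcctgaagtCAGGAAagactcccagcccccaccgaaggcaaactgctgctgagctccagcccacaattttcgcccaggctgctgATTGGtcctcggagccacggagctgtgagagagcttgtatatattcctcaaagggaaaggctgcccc
Col3a1, chr1:45311288-45311537, plus strand: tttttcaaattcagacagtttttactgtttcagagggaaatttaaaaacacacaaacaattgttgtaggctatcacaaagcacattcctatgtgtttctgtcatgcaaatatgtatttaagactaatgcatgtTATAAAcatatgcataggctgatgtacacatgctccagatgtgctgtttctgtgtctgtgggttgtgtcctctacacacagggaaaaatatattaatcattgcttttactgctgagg
The ETS letters were found in 13 of the 19 windows and in 35.1% of 32851 annotated ones of the same length. Those 13 included the endothelial genes Stab1, Stab2, Clec4g, Kdr and Tek, but also 6 stellate genes (Lrat, Reln, Des, Pdgfra, Ngfr and Rgs5) and Col6a1 and Timp1. The windows of the endothelial genes Eng and Fcgr2b lacked the ETS letters, and that of Eng also met the limit for printing. TATAAA was present in Clec4g and Col3a1 (12.4% of all) and CCAAT in 5 genes, Col1a2 among them (33.8% of all). A core bound by GATA factors, spelled AGATAA in one form and in the other form TGATAA, was in Rgs5 alone among the 19 (16.6% of all). A match describes these letters and does not show a bound site.

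None of the 25 tested genes passed the threshold in the knockout (limma, Benjamini-Hochberg over all 9968 tested genes, adjusted p under 0.05), where 0.762% of all tested genes did. The endothelial genes leaned to lower values: 13 of 14 had a negative difference, with a median of -0.34 on the log2(FPKM + 1) scale, against 55.8% negative and a median of -0.028 over all tested genes. Stellate genes lay close to the median of all genes, at -0.094 with 5 of 7 negative. The 4 tested matrix genes were all positive, with a median of 0.29, at levels of a few FPKM, where 44.2% of tested genes were positive. Of these 4, Col1a2 met the level for testing through its knockout values alone, as only replicate 1 of wild type (1.41) reached 1 FPKM. Over all 10 matrix genes, in a fit without the filter, the median was 0.12. There Timp1, Acta2 and Thy1 were negative, Loxl1 was at 0.00 and the others were positive. At an unadjusted p under 0.05 there were 3 of the 25 (9.93% of all tested genes), all endothelial and lower in the knockout, namely Gpr182, Dnase1l3 and Cdh5; over all tested genes 5.89% were lower and 4.04% higher at that level. Values of the 2 genotypes did not overlap for 7 of the 25, 5 lower and 2 higher in the knockout, and for 15.4% of all tested genes.

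**Figure D1:**
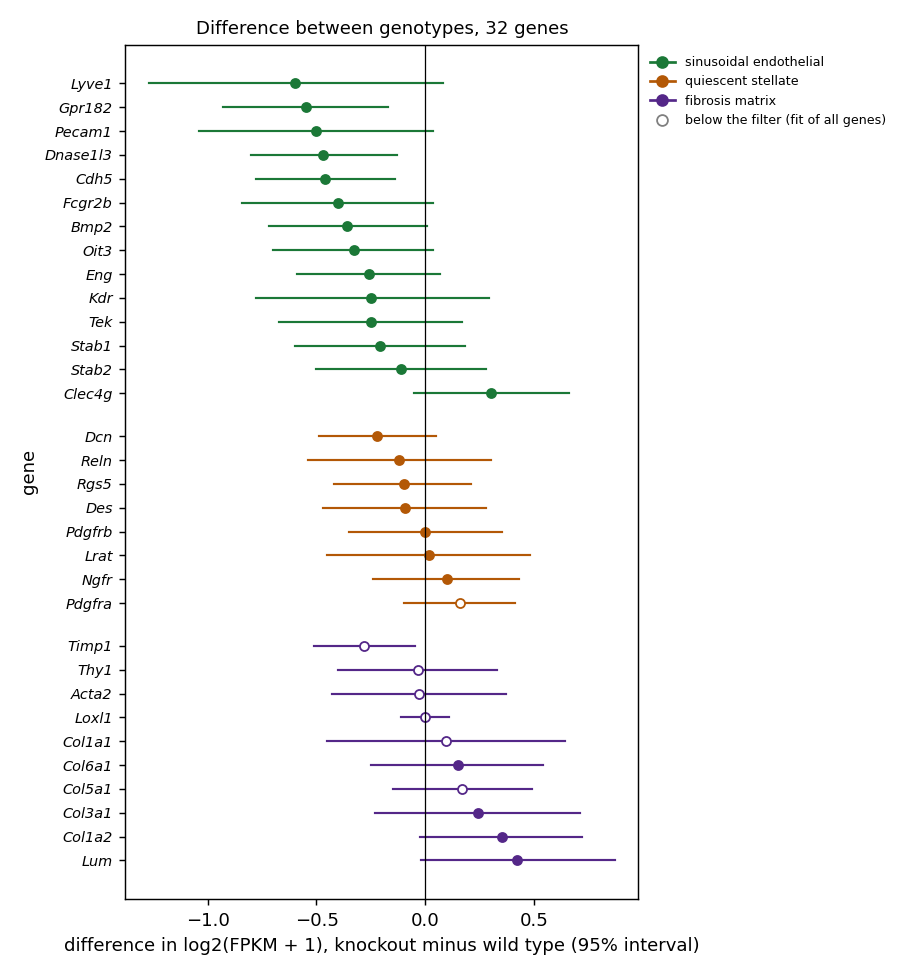
Difference in log2(FPKM + 1), knockout minus wild type, for the 32 genes (horizontal axis), with bars for limma's 95% interval of each gene, unadjusted; open points are the 7 genes below the level for testing, from a fit of all genes. Endothelial points lie left of 0 except Clec4g at 0.30, stellate points lie around 0, and the matrix points run from -0.28 for Timp1 to 0.42 for Lum.

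Among scavenger and uptake receptors, the 2 stabilins carry the clearance of hyaluronan, modified lipoproteins and other waste. Stab2, one of the markers that define sinusoidal endothelium (gene 192188, chromosome 10, 86841194 to 87008038, GRCm38), stood at 11.20, 13.20 and 13.20 FPKM in knockout replicates 1, 2 and 3 and at 10.90, 17.59 and 13.03 in wild type replicates 1, 2 and 3. The groups overlapped, with wild type replicate 2 above the rest and the other 5 libraries within a narrow band. The log2 difference was -0.11 (SE 0.17; limma, adjusted p = 0.92), and its 95% interval ran from -0.50 to 0.28. Without wild type replicate 2 the difference was 0.063. Stab1, also present on some macrophages, stood at 3.32, 4.92 and 4.16 FPKM in the knockout libraries against 4.28, 5.97 and 4.54 in the wild type libraries. It too overlapped and was highest in wild type replicate 2 (log2 difference -0.21, SE 0.17; limma, adjusted p = 0.77).

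Fcgr2b, the inhibitory Fc receptor through which sinusoidal endothelium removes small immune complexes, stood at 17.56, 30.83 and 18.41 FPKM in the knockout libraries against 27.19, 31.19 and 28.17 in the wild type libraries. Knockout replicates 1 and 3 were the lowest, while knockout replicate 2 lay among the wild type libraries. Its log2 difference was -0.40 (SE 0.20; limma, adjusted p = 0.55), and it ran from -0.65 without knockout replicate 2 to -0.26 without knockout replicate 1. Lyve1, a hyaluronan receptor of sinusoidal and lymphatic endothelium, stood at 2.32, 0.58 and 0.38 FPKM in the knockout libraries against 1.97, 1.43 and 2.47 in the wild type libraries. It split the knockout libraries, as replicate 1 lay within the wild type range and replicates 2 and 3 below it. The log2 difference of -0.60 (SE 0.30; limma, adjusted p = 0.57) became -0.99 without knockout replicate 1, where Lyve1 passed (limma, adjusted p = 0.044), and -0.98 without replicate 1 of both genotypes (limma, adjusted p = 0.020). It was -0.45 without knockout replicate 2 and -0.35 without knockout replicate 3 (limma, adjusted p = 0.96 and 0.98). The 2 fits where Lyve1 passed called 211 and 1183 of the 9968 tested genes, against 76 with all libraries. Wild type values alone brought Lyve1 to the level for testing, and without replicate 1 no knockout value of Lyve1 reached 1 FPKM. About 10 fragments stood behind its lowest value, as estimated from the steps between low FPKM values.

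Clec4g (gene 75863, chromosome 8, 3707066 to 3720695), which encodes the lectin LSECtin of sinusoidal endothelium, had the highest mean of the endothelial genes over all 6 libraries, though in wild type the mean of Fcgr2b was higher. It stood at 31.85, 45.10 and 30.48 FPKM in knockout replicates 1, 2 and 3 and at 26.11, 30.02 and 29.18 in wild type replicates 1, 2 and 3. Every knockout value lay above every wild type value, by a small margin for knockout replicates 1 and 3 and a wide one for replicate 2. The means were 35.8 ± 8.07 FPKM (knockout) and 28.4 ± 2.06 FPKM (wild type; SD, n = 3 each). The log2 difference was 0.30 (SE 0.16; limma, adjusted p = 0.59), and without knockout replicate 2 it was 0.13. Of the 14 endothelial genes this was the only one with higher values in all 3 knockout libraries, a pattern found in 5.32% of tested genes.

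Every knockout value lay below every wild type value for 4 endothelial genes, as for 10% of tested genes. Gpr182, an atypical receptor of sinusoidal and lymphatic endothelium that binds chemokines (gene 11536, chromosome 10, 127749602 to 127751798), stood at 6.21, 8.08 and 5.68 FPKM in knockout replicates 1, 2 and 3 and at 8.70, 9.85 and 12.01 in wild type replicates 1, 2 and 3. Its means were 6.66 ± 1.26 FPKM (knockout) and 10.2 ± 1.68 FPKM (wild type; SD, n = 3 each), and the gap between the genotypes was narrow, between knockout replicate 2 and wild type replicate 1. The log2 difference was -0.55 (SE 0.17; limma, adjusted p = 0.26). Dnase1l3 encodes a secreted nuclease that digests DNA in chromatin and microparticles. It stood at 7.38, 9.03 and 7.14 FPKM in the knockout libraries against 10.27, 13.10 and 10.33 in the wild type libraries, with wild type replicate 2 highest and knockout replicates 1 and 3 lowest. The log2 difference was -0.47 (SE 0.15; limma, adjusted p = 0.3), with a 95% interval of -0.80 to -0.13.

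Bmp2 is a ligand by which sinusoidal endothelium induces hepcidin in hepatocytes. It stood at 2.73, 3.89 and 3.99 FPKM in the knockout libraries against 4.77, 5.17 and 4.37 in the wild type libraries, with knockout replicate 1 well below the other 5 libraries. For Bmp2 the log2 difference was -0.36 (SE 0.16; limma, adjusted p = 0.51), and -0.22 without knockout replicate 1. Cdh5, VE-cadherin of the junctions between endothelial cells (gene 12562, chromosome 8, 104101613 to 104144504), is the fourth. The gene stood at 3.32, 3.13 and 3.18 FPKM in knockout replicates 1, 2 and 3 and at 4.22, 5.36 and 4.86 in wild type replicates 1, 2 and 3. The knockout libraries were nearly equal and all below wild type replicate 1, the lowest of its group. Its means were 3.21 ± 0.0985 FPKM (knockout) and 4.81 ± 0.571 FPKM (wild type; SD, n = 3 each), with a log2 difference of -0.46 (SE 0.14; limma, adjusted p = 0.27). Without replicate 1 of both genotypes Cdh5 passed, at -0.56 (limma, adjusted p = 0.038). That fit called 1183 of the 9968 tested genes, against 76 with all libraries. The remaining sinusoidal gene, Oit3, which encodes a secreted protein with zona pellucida and EGF-like domains, had means of 7.22 ± 1.49 FPKM (knockout) and 9.24 ± 0.905 FPKM (wild type; SD, n = 3 each), and knockout replicate 2 overlapped with wild type replicate 1.

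Values of the growth factor receptors of the endothelium overlapped between the genotypes. Kdr (VEGF receptor 2) stood at 4.29, 7.42 and 4.75 FPKM in the knockout libraries against 4.36, 8.16 and 7.69 in the wild type libraries. Low values were those of replicate 1 of both genotypes and knockout replicate 3, so the groups overlapped in part, with each knockout library below the wild type library of its number (log2 difference -0.25, SE 0.24; limma, adjusted p = 0.82). Tek, the angiopoietin receptor Tie2, showed a like order at 1.73, 2.42 and 1.52 FPKM in the knockout libraries against 1.79, 2.96 and 2.59 in the wild type libraries, and its log2 difference was -0.25 (SE 0.19; limma, adjusted p = 0.73). Pecam1, the adhesion molecule CD31 of endothelium and some leukocytes, ranged from 2.75 in knockout replicate 3 to 7.90 in wild type replicate 2, with means of 4.18 ± 1.27 FPKM (knockout) and 6.35 ± 1.87 FPKM (wild type; SD, n = 3 each). Wild type replicate 1 (4.27) lay among the knockout libraries, and the log2 difference of -0.50 (SE 0.24; limma, adjusted p = 0.54) was -0.80 without replicate 1 of both genotypes (limma, adjusted p = 0.052) and -0.28 without knockout replicate 3 (limma, adjusted p = 0.98). Eng, endoglin, a co-receptor for BMP9, stood at 14.67, 18.26 and 14.27 FPKM in the knockout libraries against 19.96, 20.96 and 16.29 in the wild type libraries. Knockout replicate 2 lay above wild type replicate 3, and the log2 difference was -0.26 (SE 0.15; limma, adjusted p = 0.62). The annotated ends of Eng and Fpgs overlap by 61 bases, as do those of Stab1 and Nt5dc2 by 108 bases, and reads there could belong to either gene. Long noncoding genes overlap Stab1, Stab2, Clec4g, Oit3, Kdr and Cdh5 in the annotation, and among the other members Lrat, Des and Col5a1. Whether counting used strand is not stated.

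**Figure D2:**
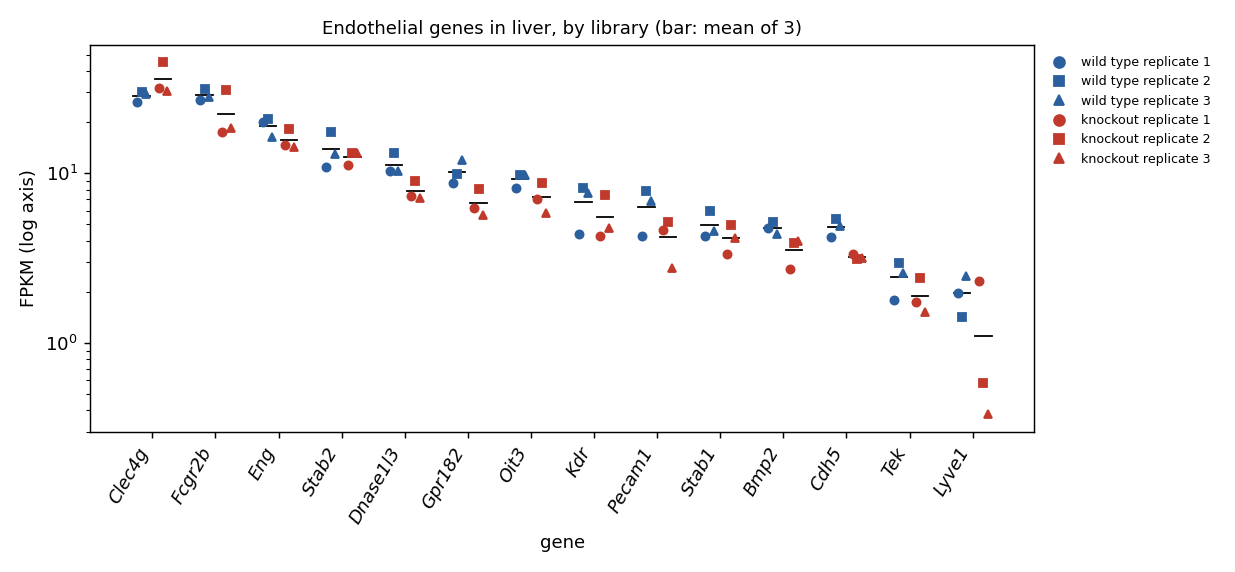
FPKM (vertical log axis) of the 14 endothelial genes in each library, with 3 wild type and 3 knockout points per gene and a bar at each group mean. Gpr182, Dnase1l3, Bmp2 and Cdh5 have all knockout points below the wild type points, Clec4g has them above, and the 2 lowest points are Lyve1 in knockout replicates 2 and 3 (0.58 and 0.38).

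Library by library, 10 of the 14 endothelial genes had their highest value in wild type replicate 2 and 3 in wild type replicate 3, while 7 had their lowest in knockout replicate 3 and 4 in knockout replicate 1. The mean level of the 14, on the log2(FPKM + 1) scale relative to all 6 libraries, was -0.21, 0.042 and -0.31 in knockout replicates 1 to 3 and -0.012, 0.30 and 0.19 in wild type replicates 1 to 3. The level was lower in the knockout within each numbered pair, while across numbers knockout replicate 2 lay above wild type replicate 1. The endothelial median was -0.45 to -0.24 when single libraries were left out.

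In wider lists of the endothelium and its pathways, some of which share genes with the 32 and with each other, no gene passed the threshold. Of 18 tested further sinusoidal genes 17 had a negative difference (median -0.25), and Mrc1 and F8 (clotting factor VIII), named after their values were seen, were lower at an unadjusted p under 0.05. Mrc1, the mannose receptor that sinusoidal endothelium shares with macrophages, had means of 6.51 ± 0.778 FPKM (knockout) and 10.5 ± 2.14 FPKM (wild type). The most abundant of this list were Nrp1, a VEGF co-receptor (26.0 ± 9.09 and 28.5 ± 5.59 FPKM), and Aqp1, a water channel (23.2 ± 6.92 and 24.6 ± 2.59). Among 5 tested genes of vascular endothelium outside the sinusoids 2 were positive and 3 negative (median -0.12). All 4 tested secreted signals of endothelium were negative (median -0.18), Bmp2 among them. Of the 9 tested genes of the VEGF and angiopoietin pathway 6 were negative (median -0.17), and 22 of the BMP pathway were divided into 10 positive and 12 negative (median -0.019), near the median of all tested genes. In that pathway the target gene of hepatocytes, Hamp, which encodes hepcidin, stood at 933 ± 292 and 1322 ± 552 FPKM with the single highest value in wild type replicate 1 (1957.59). Its groups overlapped (log2 difference -0.48, SE 0.30; limma, adjusted p = 0.67). At an unadjusted p under 0.05 the pathway held only Id1 and Id3, named after their values were seen. Both were higher in the knockout, by 0.72 and 0.33 (limma, adjusted p = 0.23 and 0.48), as were 4.04% of all tested genes at that level.

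Differences of the 7 tested stellate genes ran from -0.22 (Dcn) to 0.10 (Ngfr). Dcn, decorin, a small proteoglycan that binds collagen and is abundant in stellate cells and portal fibroblasts (gene 13179, chromosome 10, 97479500 to 97518163), was the most abundant of the 32 genes. It stood at 61.80, 63.79 and 63.31 FPKM in knockout replicates 1, 2 and 3 and at 83.66, 67.17 and 70.68 in wild type replicates 1, 2 and 3. Knockout libraries lay close together and below all wild type libraries, among which replicate 1 was highest. Its log2 difference was -0.22 (SE 0.12; limma, adjusted p = 0.61). Reln, a secreted glycoprotein of quiescent stellate cells, stood at 3.22, 4.89 and 5.08 FPKM in the knockout libraries against 3.89, 5.56 and 5.09 in the wild type libraries. Replicate 1 of each genotype was the lowest of its group, and the difference of -0.12 (SE 0.19; limma, adjusted p = 0.91) was 0.045 without knockout replicate 1. Rgs5, a regulator of G-protein signalling found in pericytes and stellate cells, stood at 10.03, 11.48 and 12.52 FPKM in the knockout libraries against 11.04, 11.91 and 13.88 in the wild type libraries. The groups overlapped in part, with each knockout library below the wild type library of its number (log2 difference -0.10, SE 0.14; limma, adjusted p = 0.9).

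Lrat, the enzyme that esterifies retinol for storage, had means of 2.23 ± 0.655 FPKM (knockout) and 2.20 ± 0.679 FPKM (wild type; SD, n = 3 each). Its log2 difference was 0.015 (SE 0.21; limma, adjusted p = 0.99), and the 95% interval of -0.45 to 0.48 leaves room for differences of either sign. The receptors Pdgfrb, which drives proliferation of stellate cells, and Ngfr, the p75 neurotrophin receptor, stood near 1 FPKM in every library, at 0.93 to 1.44 and 0.87 to 1.30. Des, desmin, an intermediate filament of stellate and muscle cells, ranged from 0.74 in knockout replicate 3 to 1.39 in wild type replicate 3. Pdgfra, a receptor more of fibroblasts, stood at 0.87, 1.02 and 1.16 FPKM in the knockout libraries against 0.83, 0.83 and 0.76 in the wild type libraries. Every knockout value of Pdgfra lay above every wild type value, by 0.04 FPKM at the closest. It was below the level for testing, and in a fit of all 15960 genes its difference was 0.16 (SE 0.11; limma, adjusted p = 0.78).

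**Figure D3:**
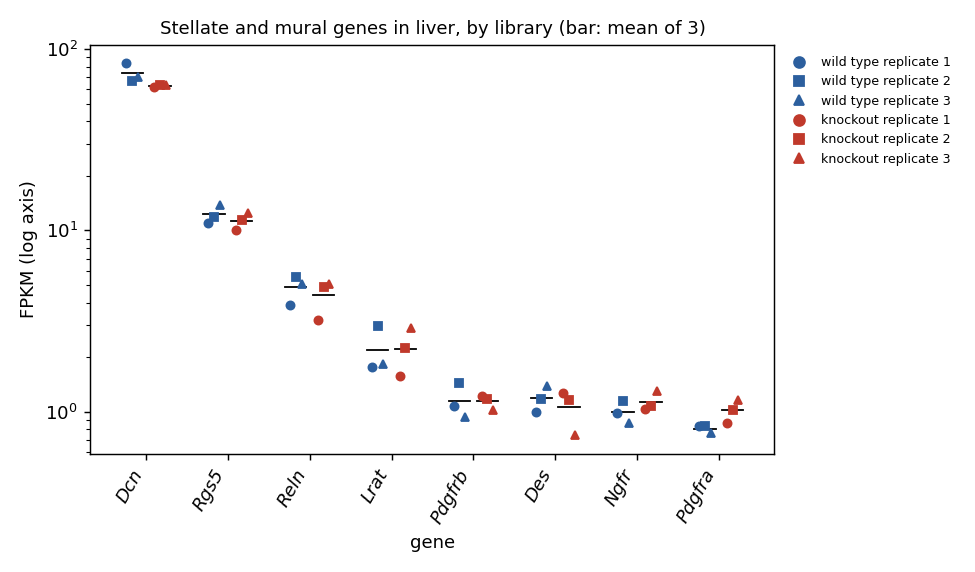
FPKM (vertical log axis) of the 8 stellate and mural genes in each library, with a bar at each group mean of 3. Dcn stands at 61.80 to 83.66 FPKM, Rgs5 at 10.03 to 13.88, and Des, Pdgfrb, Ngfr and Pdgfra near 1 with the groups intermingled except for Pdgfra.

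Genes of fibrous matrix and stellate activation were low in both genotypes. Col1a1, the alpha 1 chain of type I collagen and a usual readout of liver fibrosis (gene 12842, chromosome 11, 94936224 to 94953042), stood at 1.17, 0.41 and 0.34 FPKM in knockout replicates 1, 2 and 3 and at 0.98, 0.26 and 0.35 in wild type replicates 1, 2 and 3. Its high values were those of replicate 1 of both genotypes, and the other 4 libraries lay at 0.41 or below. In the fit of all genes the log2 difference was 0.095 (SE 0.23; limma, adjusted p = 0.94). Its partner Col1a2 (gene 12843, chromosome 6, 4505618 to 4541543), the alpha 2 chain of the same trimer, stood at 1.99, 1.51 and 1.47 FPKM in knockout replicates 1, 2 and 3 and at 1.41, 0.99 and 0.88 in wild type replicates 1, 2 and 3. Each knockout value lay above each wild type value, and within both genotypes replicate 1 was again the highest. The means of Col1a2 were 1.66 ± 0.289 FPKM (knockout) and 1.09 ± 0.280 FPKM (wild type; SD, n = 3 each), and the log2 difference was 0.35 (SE 0.17; limma, adjusted p = 0.54). Col3a1, the chain of type III collagen, stood at 2.89, 2.29 and 1.72 FPKM in the knockout libraries against 2.60, 1.33 and 1.52 in the wild type libraries. Replicate 1 of wild type exceeded knockout replicates 2 and 3, so the groups overlapped (log2 difference 0.24, SE 0.21; limma, adjusted p = 0.78; 0.11 without knockout replicate 1).

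Lum, lumican, a proteoglycan that spaces collagen fibrils, had the largest positive difference on the log2(FPKM + 1) scale, while with a pseudocount of 0.1 it was at 0.55 and Col1a2 at 0.57. It stood at 4.27, 4.18 and 3.03 FPKM in the knockout libraries against 3.47, 1.82 and 2.61 in the wild type libraries. Only wild type replicate 1 reached into the knockout range, above knockout replicate 3. The log2 difference of Lum was 0.42 (SE 0.20; limma, adjusted p = 0.53), with a 95% interval of -0.02 to 0.87, and without wild type replicate 2 it was 0.25. Col6a1, of type VI collagen, ranged from 0.56 to 1.29 FPKM with its highest and lowest values both in wild type (log2 difference 0.15). Col5a1, a minor chain that nucleates fibrils, stood at 0.41, 0.86 and 0.84 FPKM in the knockout libraries against 0.59, 0.59 and 0.35 in the wild type libraries, with overlap.

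Markers of activated stellate cells were low in all 6 libraries. Acta2, smooth muscle actin of myofibroblasts and vessel walls, stood at 0.66, 1.14 and 0.47 FPKM in the knockout libraries against 0.55, 1.05 and 0.75 in the wild type libraries, in both groups with replicate 2 highest. In the fit of all genes its difference was -0.03 (SE 0.17; limma, adjusted p = 0.98). Timp1, an inhibitor of matrix metalloproteases, stood at 0.11, 0.00 and 0.15 FPKM in the knockout libraries against 0.40, 0.14 and 0.43 in the wild type libraries, about 0 to 3 fragments per library. The groups overlapped, in the fit of all genes the difference was -0.28 (SE 0.10; limma, adjusted p = 0.48), and Timp1 overlaps the Syn1 gene by 4572 bases. Loxl1, a collagen and elastin crosslinking enzyme, was listed at 0.10 to 0.16 FPKM in each genotype, and Thy1, a surface protein of portal fibroblasts and T cells, at 0.25 to 0.84 with its highest value in knockout replicate 1.

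**Figure D4:**
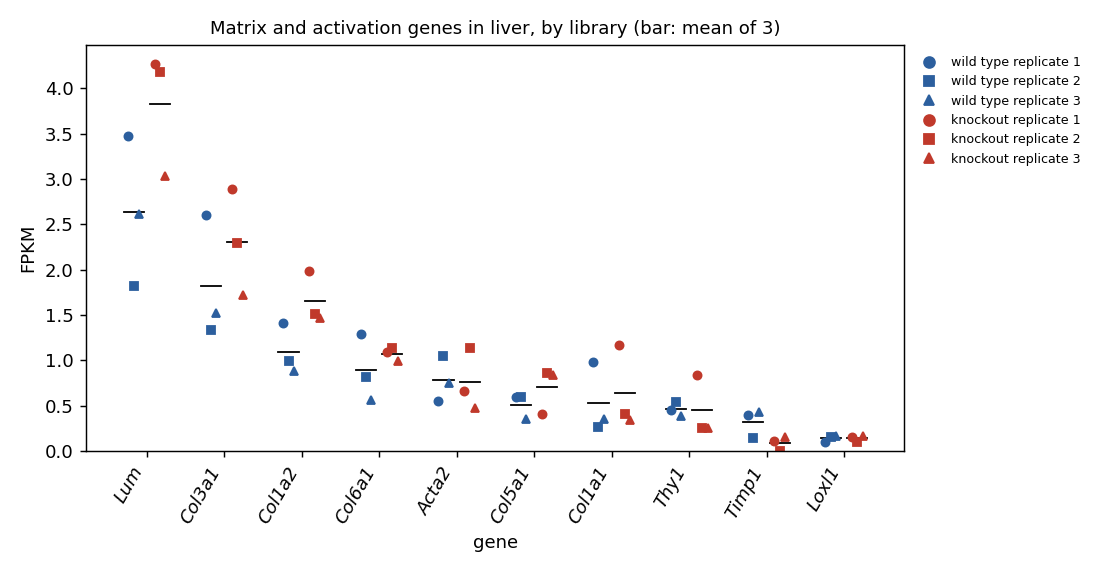
FPKM (vertical linear axis from 0) of the 10 matrix and activation genes in each library, with a bar at each group mean of 3. No value exceeds 4.27 FPKM; Col1a1 has its 2 highest points in replicate 1 of each genotype (1.17 and 0.98), and the knockout points of Col1a2 all lie above the wild type points.

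Wider lists around these genes gave 1 call among 127 tested genes, a share near the 0.762% called over all tested genes. The contractile and smooth muscle list had 6 tested genes, 1 higher and 5 lower, and Tpm2, a tropomyosin of muscle and myofibroblasts, rose from 0.497 ± 0.196 to 2.22 ± 0.726 FPKM (log2 difference 1.09, SE 0.20; limma, adjusted p = 0.046). Its libraries held 1.43, 2.86 and 2.36 FPKM (knockout) and 0.48, 0.70 and 0.31 (wild type). No wild type value reached 1 FPKM, so Tpm2 met the level for testing only through its knockout values. The call of Tpm2 ended with the replicate as a block (limma, adjusted p = 0.055) and in each fit that left out a single library other than knockout replicate 1. There limma gave an adjusted p of 0.24 without knockout replicate 2, 0.17 without knockout replicate 3, and 0.083, 0.10 and 0.21 without wild type replicates 1, 2 and 3. Cald1 and Tpm1 of that list, which also act in contraction and were named after their values were seen, were lower at an unadjusted p under 0.05, so the list did not share a direction. Of 14 tested further matrix genes 6 were positive and 8 negative (median -0.026), and the most abundant were Fn1 and Col18a1, which hepatocytes also make, at knockout means of 117 ± 13.4 and 127 ± 18.7 FPKM and wild type means of 111 ± 24.7 and 96.1 ± 10.2. Matrix crosslinking, processing and breakdown had 5 positive and 6 negative of 11 (median -0.084). There Serpinh1, the collagen chaperone HSP47, named after its values were seen, had means of 2.17 ± 0.212 FPKM (knockout) and 4.19 ± 0.552 FPKM (wild type), with a log2 difference of -0.71 (SE 0.15; limma, adjusted p = 0.082). Bmp1, the procollagen C-protease and likewise named after its values were seen, went the other way at 27.3 ± 2.79 and 17.7 ± 2.26 FPKM (log2 difference 0.61; limma, adjusted p = 0.11).

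No gene passed among 14 tested of the TGF-beta pathway (8 positive, 6 negative, median 0.038), 18 further stellate genes (8 positive, 10 negative, median -0.011), 13 of retinoid storage and use (9 positive, 4 negative, median 0.17) or 4 of the PDGF and nerve growth factor pathway (3 positive, 1 negative, median 0.076). At an unadjusted p under 0.05 these held 1, 1, 1 and 0 genes, each higher in the knockout, where 4.04% of all tested genes were.

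Replicate 1 of the 2 genotypes departed from replicates 2 and 3 in the same direction for many of the 32 genes. All 4 tested matrix genes were higher in replicate 1 than in the mean of replicates 2 and 3 within both genotypes, which held for 18.2% of tested genes. Of the 14 endothelial genes 9 were lower in replicate 1 of both, as were 42.3% of tested genes. Of the 4 tested markers of recruited myeloid cells 3 were higher in replicate 1 of both, S100a8 of neutrophils among them. It stood at 8.75 and 10.21 FPKM in replicate 1 of knockout and wild type and at 0.77 to 3.34 in the others. The part of these cells in the results was not tested.

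Other cell types were read from marker lists of the same libraries. Over all tested genes 55.8% of differences were negative and 44.2% positive, with a median of -0.028, and 0.762% were called. Kupffer cell and macrophage markers had 12 of 13 negative differences, a median of -0.40, and 1 call, Lyz2 (lysozyme), which fell from 31.9 ± 1.27 to 17.3 ± 3.31 FPKM (limma, adjusted p = 0.038). Their summed level was 150 to 254 FPKM (knockout) and 253 to 277 FPKM (wild type), and the defining markers Clec4f and Vsig4 were well above 0. On the centred log2 scale their mean level in knockout replicate 1 (0.19) lay within the wild type range of 0.11 to 0.24. The endothelial sum was 116 to 161 against 137 to 169 FPKM, the stellate sum 81.0 to 88.0 against 92.2 to 104, and the matrix sum 9.42 to 13.6 against 7.69 to 11.8. Most of the stellate sum was Dcn alone, at 61.80 to 63.79 against 67.17 to 83.66 FPKM. The mean stellate level on the centred log2 scale did overlap (-0.13 to 0.028 against -0.05 to 0.12). Hepatocyte markers had 6 of 8 positive differences (median 0.23) and summed to 45547 to 52866 against 41949 to 48484 FPKM. Their mean level on the centred log2 scale was 0.024 to 0.18 against -0.12 to -0.089, with no overlap. Red blood cell markers also did not overlap in level (-0.79 to -0.024 against 0.0025 to 0.87), while their sums of 197 to 394 and 232 to 536 FPKM did. Of the 3 tested, Alas2, of heme synthesis in red cell precursors, fell from 47.9 ± 3.30 to 9.43 ± 0.859 FPKM (limma, adjusted p = 2e-05). Its log2 difference of -2.23 was the lowest, while the median was -0.13 and the highest 0.08. The gap in level thus rested largely on Alas2. The 1 tested cholangiocyte marker, Spp1 (osteopontin), stood at 19.85, 17.50 and 17.54 FPKM against 31.97, 25.72 and 23.39, with no overlap (limma, adjusted p = 0.19). The part of these levels in the endothelial values was not tested. Portal fibroblast and mesothelial markers had 2 of 14 tested, both positive, and summed to 10.1 to 14.0 against 9.5 to 11 FPKM. The defining mesothelial genes Msln, Upk3b and Wt1 stayed at or below 1.40, 0.62 and 0.17 FPKM.

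**Figure D5:**
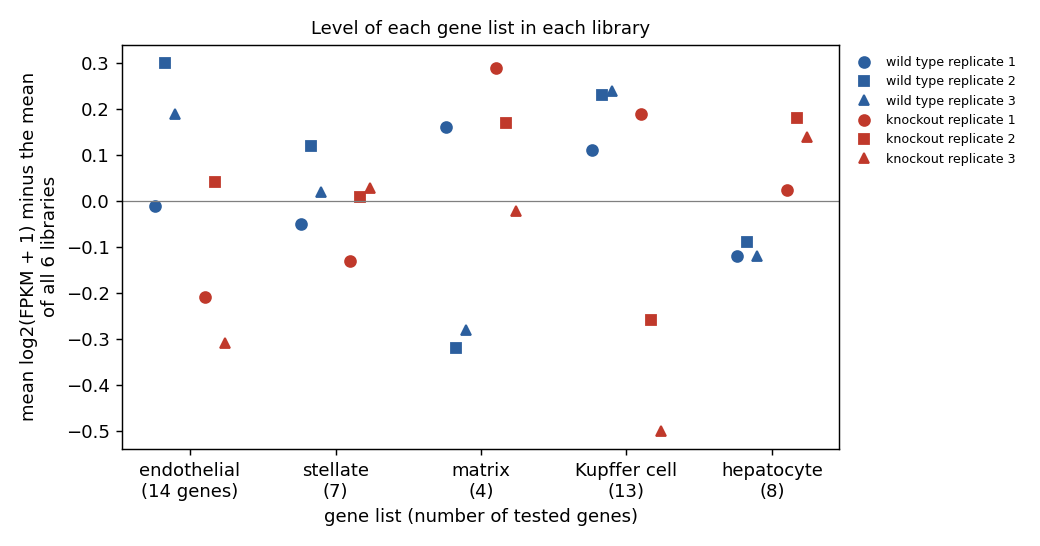
Mean log2(FPKM + 1) of the tested genes of each list, minus the mean of all 6 libraries (vertical axis), for 5 gene lists in each library. Endothelial levels overlap between knockout replicate 2 (0.042) and wild type replicate 1 (-0.012), matrix levels are lowest in wild type replicates 2 and 3, and Kupffer cell levels are lowest in knockout replicates 2 and 3.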

How the data were processed

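Liver RNA of 6 mice was sequenced from Illumina TruSeq libraries, per the labels' protocols. HISAT and mm10 are named in the submitters' processing notes, with no quantifier or annotation stated. Values deposited by the authors are FPKM, per the file headers, to 2 decimals. FPKM hold no counts, so limma 3.58.1 in R 4.3.3 (trend, 2-sided) was run on log2(FPKM + 1) over the 9968 genes that reached 1 FPKM in 3 or more libraries, with Benjamini-Hochberg adjustment over all of them and a threshold of 0.05. This scale understates differences of genes with low FPKM. Members below the level for testing were read from a fit of all 15960 genes. The script was tested on simulated data. Samples were grouped by genotype. Nothing says that replicates are separate litters or extractions, and p-values measure only the spread between these samples.

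Depth is not stated. Steps between low FPKM of genes with transcripts of 450 to 1200 bases put it highest in knockout replicate 1 (12.3 M fragments, against 9.25 to 9.7 M in the others), with 72.7% to 78.1% of values near a whole step (tolerance 0.15, chance 30%). For each library the depth with the largest such share was kept, while the 30% holds for a depth fixed beforehand. The 2 are therefore not alike. Fragment numbers given for single genes are estimates from these steps, and intervals cover the spread between libraries. Deviations from the group means correlated at 0.30, 0.198 and 0.157 between replicates 1, 2 and 3 of the genotypes, at 0.212 between knockout replicate 3 and wild type replicate 2, and at -0.298 to 0.0307 for the other unlike pairs, and the samples were treated as paired in an alternative. Positions and upstream sequences are from RefSeq on GRCm38.p6, the assembly that mm10 names.

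Members and gene lists were chosen with earlier results of these data known. The rule for named genes allowed all members, with full values for the 3 smallest p and 2 highest means of each group and for the markers Stab2, Clec4g, Dcn and Col1a1; library values of further members were added after the values were seen. In the wider lists it named genes past the threshold or the 2 most abundant, and others are said to be chosen later; Spp1 and the other cell type markers named were also chosen after their values were seen. Alternatives were another pseudocount, other filters, 3 scalings, no variance trend, sample weights, the replicate block, and libraries left out.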

Additional observations from a re-analysis of the deposited data

How the results depend on the processing

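The medians of the 3 groups kept their sign and moved by less than the spread between libraries under all 16 alternatives, from -0.45 to -0.24 (endothelial), -0.13 to -0.026 (stellate) and 0.12 to 0.45 (matrix). The number of members past the threshold was 0 (limma) except without knockout replicate 1, where it was 1 (Lyve1), without replicate 1 of both genotypes, where it was 2 (Lyve1 and Cdh5), and with sample quality weights, where it was 4 (Lyve1, Gpr182, Cdh5 and Lum), of which 3 were endothelial and 1 was of the matrix. At an unadjusted p under 0.05 it was 3 with all libraries. These settings also raised the calls over all genes, to 211, 1183 and 1151 from 76. Leaving out single libraries gave 0 to 1 members called. With the replicate as a block no member passed, and the wider lists held 0 calls against 1 without it. Their count was also 0 with no filter and with a pseudocount of 0.1, and from 0 to 2 when single libraries were left out. With at least 2 FPKM it was 0 too, as Tpm2 did not reach that level in enough libraries to be tested. It was 18 of 127 tested genes with sample quality weights and 20 of 127 without replicate 1 of both genotypes. Those settings called 1151 and 1183 of all 9968 tested genes. Tpm2 missed the threshold with a pseudocount of 0.1 (limma, adjusted p = 0.054) and with no filter (0.14). Among genes followed one by one, Stab2 changed sign without wild type replicate 2 (0.063) and Reln without knockout replicate 1 (0.045), and over all fits with a library left out they ran from -0.26 to 0.063 and from -0.25 to 0.045. The cause of these changes was not tested. An estimated 0 to 21 fragments stand behind each value of Timp1, Loxl1, Thy1 and Acta2, which limits their precision.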

Other observations

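Within the endothelial genes the proportions differed between genotypes for some pairs, chosen after the values were seen and given without a test. The ratio of Clec4g to Gpr182, both counted per length, was 5.13, 5.58 and 5.37 in knockout replicates 1 to 3 and 3.0, 3.05 and 2.43 in wild type replicates 1 to 3. The ratio of Clec4g to Dnase1l3 was 4.32, 4.99 and 4.27 against 2.54, 2.29 and 2.82. Ratios within a library do not depend on its scaling, and these do not overlap between genotypes. That had to follow from the single genes, as Clec4g was higher and Gpr182 and Dnase1l3 lower in the knockout without overlap. The lack of overlap in these ratios therefore adds no separate evidence. The ratio of Clec4g to Stab2 did overlap (2.84, 3.42 and 2.31 against 2.40, 1.71 and 2.24), as did that of Gpr182 to Stab2 (0.554, 0.612 and 0.430 against 0.798, 0.560 and 0.922). Likewise the ratio of Stab1 to Stab2, the 2 stabilins, was 0.296 to 0.373 (knockout) and 0.339 to 0.393 (wild type), with overlap. The ratio of Col1a1 to Dcn was highest in replicate 1 of both genotypes (0.0189 and 0.0117) and at 0.00387 to 0.00643 in the other libraries.

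In the table's own gene annotation, 6 of the 14 endothelial genes (Stab2, Fcgr2b, Kdr, Pecam1, Cdh5 and Eng) carried the term for the external side of the plasma membrane, as did 1.65% of all genes.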
